A study of Mus musculus with 16 samples.

Results

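RNA of 16 mouse lung tumors was sequenced, 9 labelled Max -/- (Max null) and 7 labelled wild type (Max wild-type), and the reads of 10 genes of stromal fibroblasts and their matrix were followed across them: Col1a1, Col1a2, Col3a1, Dcn, Lum, Postn, Fbln1, Pdgfra, Pdgfrb and Acta2. The members were taken by symbol; all 10 were found among the 23284 gene symbols of the files, and all 10 passed the filter on low counts, which kept 14825 genes. Both groups are called RPMax in the labels, carry a mixed 129/SvJ and C57BL/6 background, and received Ad.CMV.Cre, an adenovirus with Cre recombinase under the CMV promoter, through the trachea. The letters RP commonly stand for floxed Rb1 and Trp53, whose loss in mouse lung gives small cell carcinoma; no label explains them, so which further deletions both groups share is not stated. Ages are not labelled, nor whether each tumor is from its own mouse, and p-values therefore describe the spread among these tumors, which may be partly technical. The CMV promoter is not restricted to 1 cell type, so Cre could act in any infected cell. The question of the comparison is how tumors with and without Max differ.

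Fibroblasts are the connective tissue cells of an organ and of a tumor's stroma. They secrete fibrillar collagens as soluble chains, which are hydroxylated and wound into triple helices inside the cell, trimmed outside it, and assembled into fibrils whose width is tuned by small proteoglycans. Receptors for platelet-derived growth factor (PDGF) mark fibroblasts and the mural cells of vessels, and activated fibroblasts make smooth muscle actin. In bulk tumors, fewer cells of a type and less RNA per cell cannot be told apart.

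Reads in genes ranged from 8.665 to 15.11 M (megareads) per tumor, and CPM below are counts per M of these reads after TMM scaling. Max itself measured 64.2 to 83.5 CPM in null and 52.4 to 75.9 CPM in wild-type tumors (log2 difference 0.18 ± 0.11, SE, edgeR adjusted p = 0.281). Reads over exons that Cre leaves in place are part of that count, so it does not check the genotype, and directions hold between groups as labelled. Of 12 neuroendocrine tumor markers 11 passed the filter, Neurod1 did not, and their summed level was 4182 to 7493 CPM in null and 4237 to 27190 CPM in wild-type tumors. Calca alone held 23460 CPM in wild-type tumor 2, the tumor with the highest sum. Of the 11, 0 were called by edgeR or voom, 2 by DESeq2, and 4 had an unadjusted p under 0.05. Wild-type libraries 2, 4 and 7 had the highest shares of reads aligned to more than 1 place, at 16.01%, 20.8% and 22.2%. The other wild-type libraries had 12.3% to 14.6% and the null libraries 9.17% to 11.8%. Library 2 thus lay nearer to the other wild-type libraries than to 4 and 7. This share does not overlap between the groups, so it and the labelled genotype cannot be told apart. The TMM factor was 0.748 for wild-type library 7 and 0.936 to 1.07 for all others.

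Promoter sequences of 6 members (8 start sites) were in the RefSeq table of build GRCm38.p6; Col1a1, Dcn, Lum and Pdgfrb were not. The 250 bases before the start are shown for Col3a1 and Postn, because their levels moved together across tumors, and for Fbln1, because it was the only matched member with the letters CACGTG, the E-box bound by MAX dimers. Capitals mark matches to the motifs searched on both strands, which were CACGTG (the E-box), TATAAA (the TATA box), CCAAT (the CCAAT box), GGAATG (the TEAD site) and TGANTCA (the AP-1 site). None of these motifs overlap in the windows shown.
Col3a1 (chr1:45311288-45311537, plus strand): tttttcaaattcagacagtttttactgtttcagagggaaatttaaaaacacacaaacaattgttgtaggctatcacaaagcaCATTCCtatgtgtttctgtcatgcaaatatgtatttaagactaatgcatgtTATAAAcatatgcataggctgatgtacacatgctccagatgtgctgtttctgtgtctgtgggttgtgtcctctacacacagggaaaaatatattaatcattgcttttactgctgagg
Postn (chr3:54360857-54361106, plus strand): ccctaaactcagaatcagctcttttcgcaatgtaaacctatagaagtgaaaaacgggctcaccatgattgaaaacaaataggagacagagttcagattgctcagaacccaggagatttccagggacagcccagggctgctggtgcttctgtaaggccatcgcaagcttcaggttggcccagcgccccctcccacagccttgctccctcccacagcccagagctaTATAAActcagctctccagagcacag
Fbln1 (chr15:85205699-85205948, plus strand): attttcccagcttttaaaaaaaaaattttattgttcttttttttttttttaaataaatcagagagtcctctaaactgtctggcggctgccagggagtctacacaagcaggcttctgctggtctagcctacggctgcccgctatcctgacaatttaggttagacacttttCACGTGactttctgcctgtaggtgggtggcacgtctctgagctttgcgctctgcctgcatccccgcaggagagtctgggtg
The E-box of Fbln1 begins 81 bases before the start, and the same bases lie 140 bases before its second listed start. Of 32851 promoters in the table, 6.02% hold CACGTG in the same window. TATAAA begins 117 bases before the start in Col3a1 and 26 bases before the shown start in Postn (12.4% of promoters), and Col3a1 also holds CATTCC, the TEAD letters on the other strand, 168 bases before the start (12.6%). The window of the other listed start of Postn, not shown, held none of the motifs. The CCAAT box was found in Col1a2 (33.8%), the TEAD letters also in Acta2 and the AP-1 letters in no member window (6.75%). These matches are a description of letters, not of binding.

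Of the 10 genes, 0 passed the threshold between Max null and wild-type tumors (edgeR's quasi-likelihood test, Benjamini-Hochberg adjusted p under 0.05 over all genes tested), where 16% of all genes did. At an unadjusted p under 0.05 there was 1, Col1a1, where 32.8% of all genes passed. DESeq2 called 2 members, Col1a1 as higher and Fbln1 as lower, beside 3335 of all 14825 genes. Voom with sample weights called Col1a1, beside 2440 of all 14825 genes. The fitted log2 difference (Max null minus wild-type) was above 0 for 6 members and below 0 for 4, with a median of 0.09, beside -0.03 over all genes, of which 52.4% lay below 0. No member's values were free of overlap between the groups, as they were for 1.56% of all genes.

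**Figure D1:**
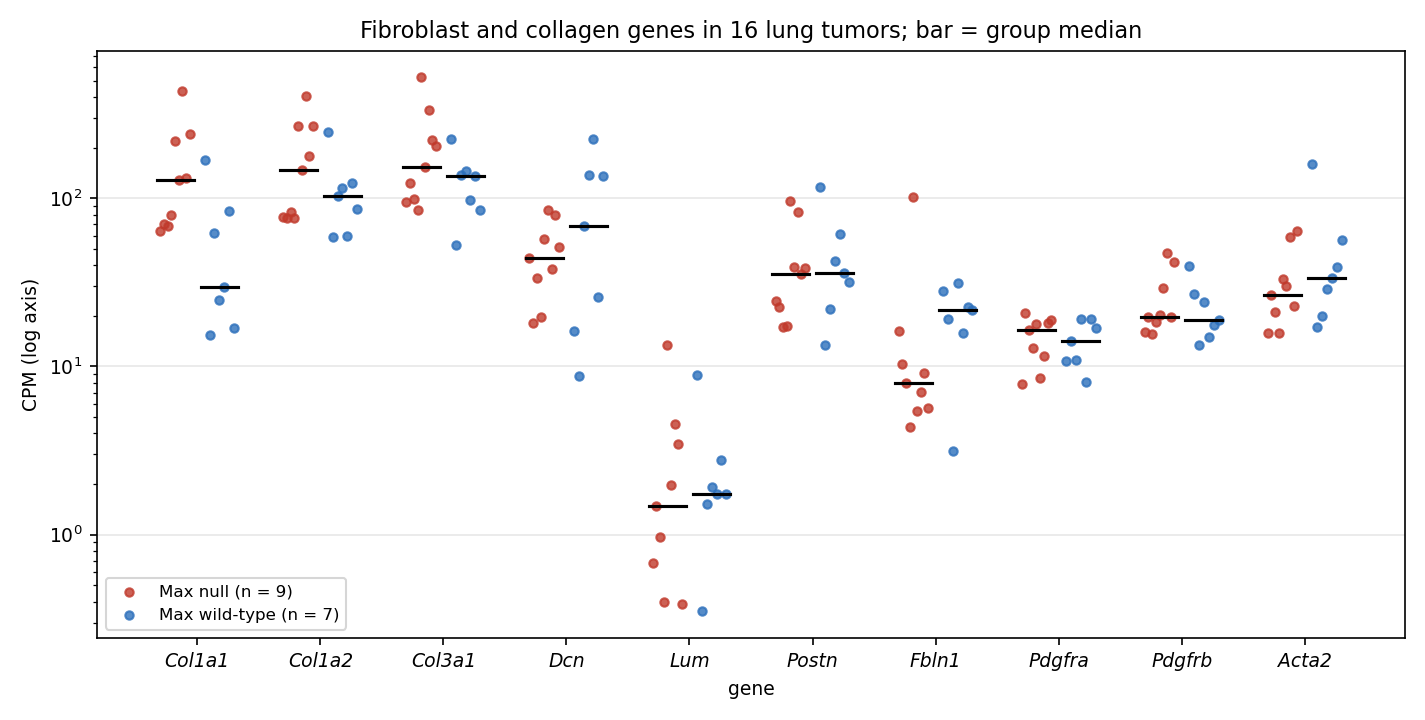
CPM (log axis) of the 10 genes in each of 9 Max null (red) and 7 wild-type (blue) tumors, 1 point per tumor, with the group median as a bar. The groups overlap for every gene; all 9 null values of Col1a1 lie above the wild-type median of 29.8 CPM, and 8 of 9 null values of Fbln1 lie below the wild-type median of 21.6 CPM.

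The fibrillar collagen chains had the highest mean CPM of the members. Col1a1 encodes the chain present in duplicate in each type I collagen helix. It measured from 64.3 CPM (tumor 1) over a median of 128 CPM to 433 CPM (tumor 7) in null tumors, and from 15.3 CPM (tumor 2) over 29.8 CPM to 170 CPM (tumor 1) in wild-type tumors. Every null tumor was above the wild-type median, but wild-type tumors 1 and 6 (170 and 83.6 CPM) lay among the null values. The log2 difference was 1.47 ± 0.54 (SE, n = 9 and 7, edgeR adjusted p = 0.0683). With 1 tumor left out it ran from 1.13 to 2.05 and was called in 1 of 16 such fits, that without wild-type tumor 1 (2.05, edgeR adjusted p = 0.0128). Without wild-type tumors 2, 4 and 7 together it was 0.89 (edgeR adjusted p = 0.415). With the share of multiply aligned reads as a covariate it was 0.75 (adjusted p = 0.675).

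Col1a2, the partner chain of type I collagen, measured 76.1 to 407 CPM in null tumors (median 146) and 58.5 to 248 CPM in wild-type tumors (median 104), a log2 difference of 0.63 ± 0.40 (SE, edgeR adjusted p = 0.284). Col3a1, the chain of type III collagen of extensible tissues such as lung, measured 85.6 to 523 CPM in null (median 154) and 52.4 to 225 CPM in wild-type tumors (median 137), a log2 difference of 0.71 ± 0.38 (edgeR adjusted p = 0.204). For both genes the lowest null tumors lay within the wild-type range, and the highest levels were those of null tumors 5, 7 and 9 for Col1a2 and of null tumors 5 and 7 and wild-type tumor 1 for Col3a1. Neither was called in any of 25 alternative settings.

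The chains of type I collagen are made for 1 molecule, yet their reads stood in different proportions in the groups. The ratio of Col1a1 to Col1a2 reads was 0.834, 0.924, 0.835, 1.03, 0.818, 0.875, 1.06, 0.738 and 0.901 in null tumors 1 to 9, and 0.682, 0.262, 0.596, 0.218, 0.501, 0.681 and 0.196 in wild-type tumors 1 to 7. The lowest null value lay above the highest wild-type value, so the groups did not overlap. The ratio needs no scaling between libraries and averaged 0.891 ± 0.104 (SD, n = 9) against 0.448 ± 0.218 (n = 7), a mean difference of 1.16 on the log2 scale (two-sided exact permutation p = 8.74e-05, the smallest that 11440 assignments of the labels can give). It was examined after the values of both genes had been seen. The lowest 3 ratios were those of wild-type tumors 7, 4 and 2, the libraries with the highest multiply aligned shares. Without these 3 the wild-type mean was 0.615 ± 0.0858 (SD, n = 4) and the difference was 0.54 on the log2 scale, down from 1.16. The absence of overlap is fixed by the full set, so leaving out low wild-type ratios does not test it. The longest coding transcript in GENCODE vM21 has a GC content of 58.9% for Col1a1 and 55.7% for Col1a2, with lengths of 5930 and 5348 bases. The part of GC content or of the multiply aligned share in the ratio was not tested.

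**Figure D2:**
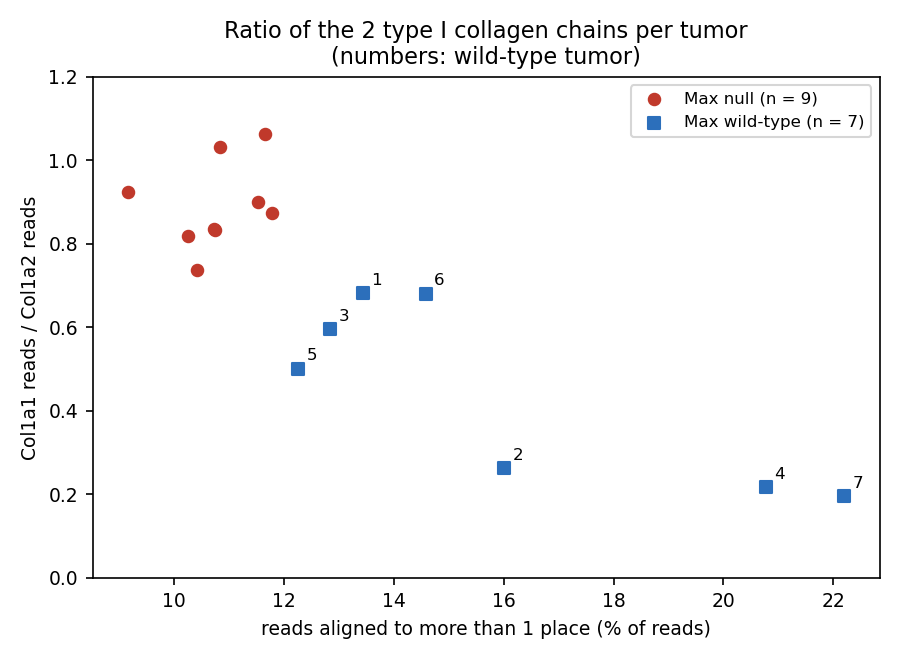
Reads of Col1a1 divided by reads of Col1a2 in each tumor (vertical axis) against the share of reads aligned to more than 1 place (horizontal axis, % of reads); circles are 9 Max null and numbered squares 7 wild-type tumors. Null tumors lie between 0.738 and 1.06 and wild-type tumors between 0.196 and 0.682, and the groups do not overlap on either axis.

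The small leucine-rich proteoglycans bind collagen fibrils and limit their width. Dcn (decorin) measured 43.9, 18.1, 33.7, 19.8, 57.2, 85.0, 37.9, 79.7 and 51.1 CPM in the Max null tumors, in order of their numbers, and in the wild-type group 16.3, 8.77, 68.3, 137, 225, 26.0 and 136 CPM, in the same order. Wild-type tumors 4, 5 and 7 exceeded every null tumor, while wild-type tumors 1 and 2 were the lowest of all 16. The log2 difference was -0.90 ± 0.53 (SE, edgeR adjusted p = 0.252), with a spread of 25.7-fold among wild-type tumors against 4.71-fold among null tumors. Wild-type tumor 1, high in the 3 collagens, was thus low in Dcn.

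Lum (lumican) was the scarcest member, at 0.384 to 13.4 CPM in null (median 1.47) and 0.351 to 8.96 CPM in wild-type tumors (median 1.75). Null tumor 5 and wild-type tumor 1 held the highest value of their group. The log2 difference was 0.13 ± 0.72 (SE, edgeR adjusted p = 0.919), and it was -0.66 without null tumor 5 and 0.83 without wild-type tumor 1, called in neither.

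Of the other matrix proteins, Postn (periostin), which promotes collagen crosslinking and is made by activated fibroblasts, measured 17.2 to 96.6 CPM in null (median 35.7) and 13.3 to 116 CPM in wild-type tumors (median 35.9), a log2 difference of -0.15 ± 0.44 (edgeR adjusted p = 0.840). The group medians were nearly equal, and wild-type tumor 1 and null tumors 5 and 7 were highest.

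Fbln1 (fibulin 1), a glycoprotein of elastic fibres and basement membranes, measured 16.3, 10.3, 7.96, 4.39, 102, 5.41, 7.07, 9.12 and 5.69 CPM in Max null tumors by number, and 28.2, 19.1, 3.15, 31.2, 15.9, 22.5 and 21.6 CPM in the 7 wild-type tumors. In null tumors other than tumor 5 it did not exceed 16.3 CPM, while 5 of 7 wild-type tumors lay above that level, and null tumor 5 was above all others. With all 16 tumors the log2 difference was -0.12 ± 0.64 (SE, edgeR adjusted p = 0.913). Without null tumor 5 it was -1.29 and passed (adjusted p = 0.0278). DESeq2 gave -1.20 (adjusted p = 0.0101), in a fit that replaced the 873 reads of null tumor 5 by 114. Without wild-type tumors 2, 4 and 7 the edgeR value was 0.09 (adjusted p = 0.966).

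The PDGF receptors were the steadiest members. Pdgfra, a receptor of resident fibroblasts, measured 7.88 to 20.8 CPM in null and 8.03 to 19.2 CPM in wild-type tumors, a 2.64-fold span over all 16 (log2 difference 0.06 ± 0.26, edgeR adjusted p = 0.894). Pdgfrb, the receptor of pericytes and many fibroblasts, measured 15.6 to 47.4 CPM in null and 13.5 to 39.4 CPM in wild-type tumors, with null tumors 7 and 9 and wild-type tumor 1 highest (0.19 ± 0.29, edgeR adjusted p = 0.687). The other members spanned 6.96-fold (Col1a2) to 38.2-fold (Lum).

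Acta2, the smooth muscle actin of vessel walls and myofibroblasts, measured 15.7 to 63.7 CPM in null (median 26.5) and 17.2 to 159 CPM in wild-type tumors (median 33.4). Wild-type tumor 1, at 159 CPM, was followed by null tumors 9 and 7 and wild-type tumor 7, at 63.7, 59.1 and 56.2 CPM. The log2 difference was -0.66 ± 0.43 (SE, edgeR adjusted p = 0.303), and -0.01 without wild-type tumor 1.

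**Figure D3:**
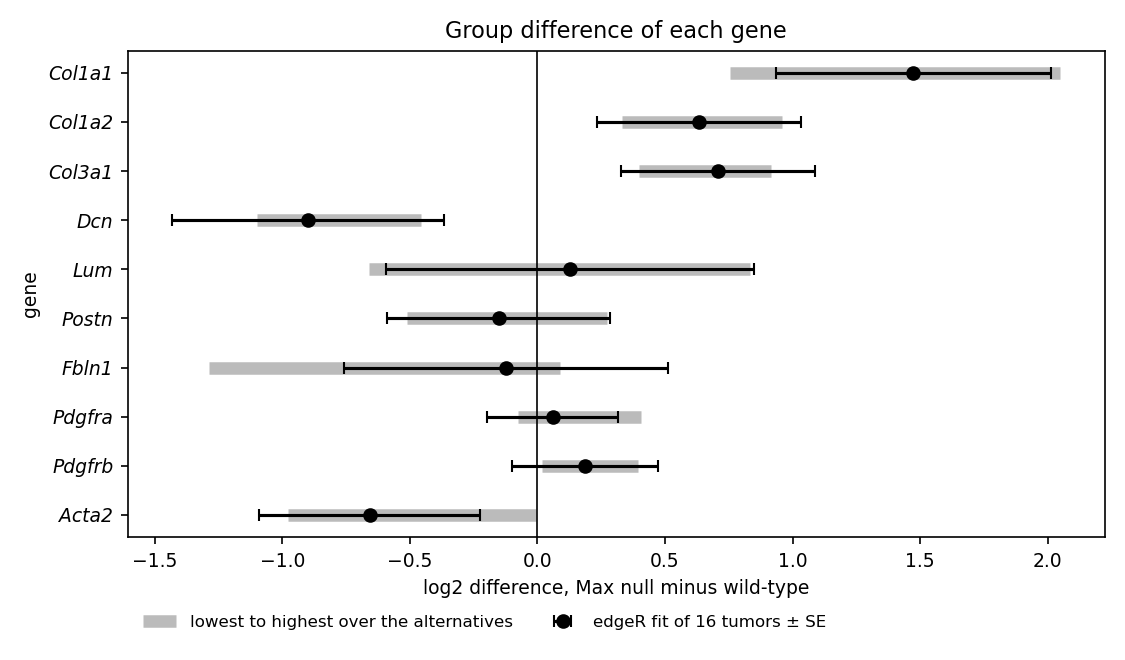
Log2 difference (Max null minus wild-type) of each of the 10 genes: points with bars are the edgeR fit of 16 tumors ± SE, and grey bands run from the lowest to the highest value over the alternative settings. The bands of Lum, Postn, Fbln1 and Pdgfra cross 0, and that of Col1a1 runs from 0.75 to 2.05.

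Per kb of the longest coding transcript of each gene (GENCODE vM21), the median level over 16 tumors was highest for Dcn (27.0 CPM per kb), then Col3a1 (24.7), Col1a2 (20.4), Acta2 (14.5), Col1a1 (12.6), Postn (11.2), Pdgfrb (3.62), Fbln1 (3.58), Pdgfra (2.25) and Lum (0.713). The ranges of neighbours in this order overlapped in each case. The order differed by group: by group median it ran Col3a1 (27.7 CPM per kb), Col1a2 (27.4), Dcn (25), Col1a1 (21.6) and Acta2 (13.02) in null tumors, and Dcn (38.9), Col3a1 (24.5), Col1a2 (19.4), Acta2 (16.4) and Postn (11.2) in wild-type tumors. Pdgfra, at 3.04 CPM per kb at most, lay in every tumor below the lowest value of Postn (4.16), Acta2 (7.72), Dcn (4.99), Col3a1 (9.42) and Col1a2 (10.9). Col1a1 stood at 5.03 CPM per kb in wild-type tumors, by the same measure. Which isoforms the authors' annotation held is not stated, so the lengths are approximate.

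A core of the members varied together from tumor to tumor. Over 16 tumors, Pearson's r of log2 CPM was above 0 in 38 of 45 pairs, with a median of 0.30 and a range from -0.26 to 0.90. By permutation test with Benjamini-Hochberg adjustment over the 45 pairs, 12 passed for Pearson's r and 9 for both r and Spearman's rho. Those 9 pairs joined Col1a1, Col1a2, Col3a1, Lum, Postn and Acta2, and r was positive within each group in all 9. Col3a1 passed with 4 partners, as did Col1a2 and Postn, while Dcn, Fbln1, Pdgfra and Pdgfrb passed with 0 of 9. Pairs of other genes were not measured, so these counts have no background share beside them.

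The closest pair was Col1a2 with Col3a1 (r = 0.905, permutation p = 1e-05, the smallest that 100000 resamples can give, adjusted 0.00045; rho = 0.903, permutation p = 4e-05, adjusted 0.0018). Its r was 0.895 within null and 0.893 within wild-type tumors, and 0.897 without the tumors farthest from the median of Col1a2, null tumors 5 and 7. Col1a1 with Col1a2 followed (r = 0.852, permutation p = 4e-05, adjusted 0.0009; rho = 0.812, permutation p = 0.00031, adjusted 0.0048), with an r of 0.985 within null and 0.835 within wild-type tumors and 0.773 without null tumor 7 and wild-type tumor 2. Within the null group these chains were thus near proportional, and the looser wild-type value includes the low ratios given above.

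Lum with Postn had r = 0.830 (permutation p = 6e-05, adjusted 0.0009; rho = 0.771, permutation p = 0.00076, adjusted 0.00855), which was 0.689 without null tumor 5 and wild-type tumor 1. Postn with Acta2 had r = 0.754 (permutation p = 0.00066, adjusted 0.00424; rho = 0.765, permutation p = 0.00102, adjusted 0.00918), and 0.724 without the same tumors. Col1a2 with Lum was the weakest of the 9 (r = 0.614, permutation p = 0.0118, adjusted 0.0443; rho = 0.688, permutation p = 0.00436, adjusted 0.023) and was 0.448 without null tumors 5 and 7. Pdgfrb passed for r alone, with Col1a2 (0.708, permutation p = 0.00266, adjusted 0.0133; rho = 0.565, permutation p = 0.0241, adjusted 0.0988; r = 0.688 without null tumors 5 and 7) and with Acta2 (0.657, permutation p = 0.00543, adjusted 0.0244; rho = 0.515, permutation p = 0.0442, adjusted 0.117; r = 0.576 without null tumors 7 and 9).

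Dcn had its highest r with Postn, at 0.299 (permutation p = 0.261, adjusted 0.511; rho = 0.341, permutation p = 0.196, adjusted 0.383), and 0.00573 without wild-type tumors 2 and 5. Pdgfra had no r above 0.241, which was that with Fbln1 (permutation p = 0.373, adjusted 0.622; rho = 0.274, permutation p = 0.307, adjusted 0.552; r = 0.0756 without null tumor 5 and wild-type tumor 3). The 2 PDGF receptor genes had r = 0.0351 with each other (permutation p = 0.897, adjusted 0.962; rho = 0.168, permutation p = 0.533, adjusted 0.759; r = -0.285 without null tumor 1 and wild-type tumor 5).

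**Figure D4:**
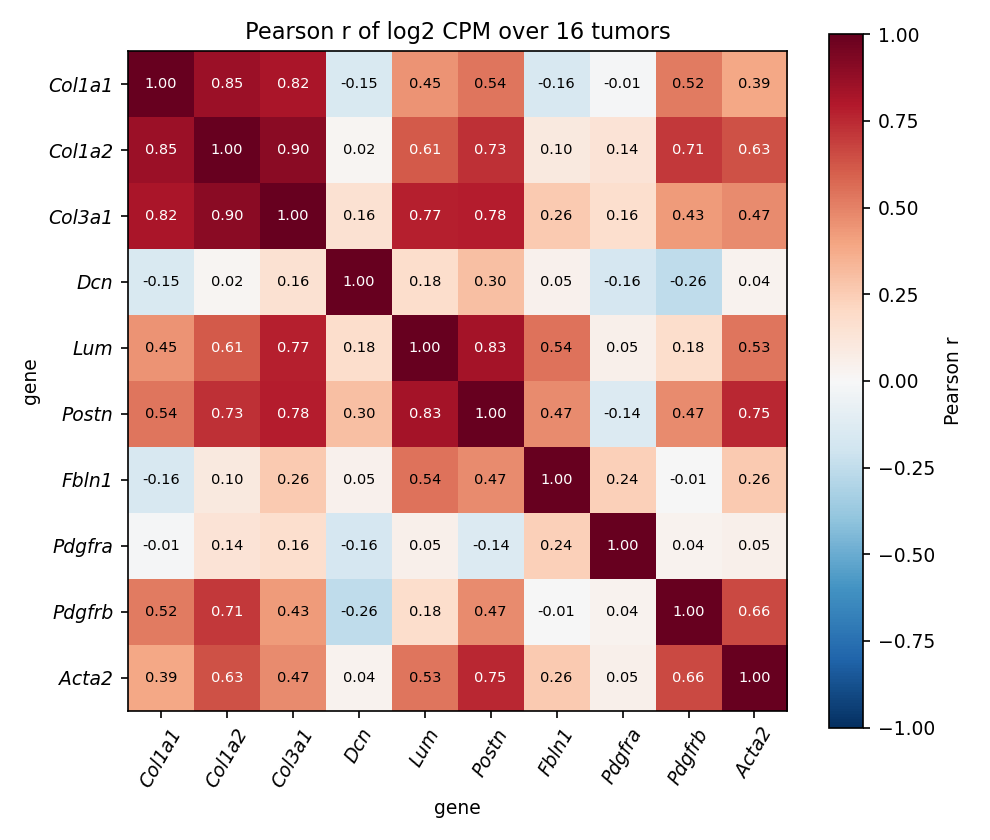
Pearson's r of log2 CPM over 16 tumors for each pair of the 10 genes, printed in each cell and coloured from -1 (blue) to 1 (red). The block of Col1a1, Col1a2 and Col3a1 ranges from 0.82 to 0.90, and the row of Dcn runs from -0.26 to 0.30.

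By tumor, null tumor 7 and wild-type tumor 1 were among the 4 highest for 7 and 8 of the 10 genes, and null tumor 5 for 6, with summed member levels of 1426, 1022 and 1353 CPM. Null tumor 4 and wild-type tumor 2 were among the 4 lowest for 7 genes each, at 330 and 226 CPM. High and low tumors of these genes thus occurred under both labels.

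Genes outside the members were ranked by how closely their log2 CPM, centred within each group, followed the mean of the members' standardised values over 16 tumors, among 14694 genes whose mean reached 1 CPM. The nearest was D0H4S114, listed by RefSeq as a synonym of Nrep, with r = 0.944. Also among the first 10 were Fbn1 (0.906), which encodes fibrillin 1 of microfibrils, Dbn1 (0.899), an actin-binding protein, Hip1 (0.880), Prrx1 (0.871), a transcription factor of mesenchyme, Cspg4 (0.870), the NG2 proteoglycan of pericytes, Epb4.1l2 (0.865) and Fndc1 (0.858). Another of the first 10 is an unnamed gene model. Of the genes named here, Dbn1 was called between the groups, at 7.70 ± 9.25 CPM in null (SD, n = 9) and 43.4 ± 60.2 CPM in wild-type tumors (n = 7), a log2 difference of -2.50 ± 0.76 (SE, edgeR adjusted p = 0.0346). It was -1.49 and not called without wild-type tumor 1 (edgeR adjusted p = 0.120), -3.18 and called without null tumor 5, and was called in 6 of 16 fits with 1 tumor left out. DESeq2 (-2.49, adjusted p = 0.00395) and voom (-2.14, adjusted p = 0.0290) called Dbn1. In edgeR fits it was not called without wild-type tumors 2, 4 and 7 (-2.96, adjusted p = 0.0800) or with the multiply aligned share (-3.06, adjusted p = 0.231). The replicate block did not call it either (-1.94, edgeR adjusted p = 0.232). Fbn1 measured 97.8 ± 68.0 against 37.7 ± 30.2 CPM (log2 difference 1.37 ± 0.47, edgeR adjusted p = 0.0519) and did not pass. In edgeR fits it passed without wild-type tumor 1 (1.86, adjusted p = 0.00933), without null tumor 3 (1.51, adjusted p = 0.0378) and with upper-quartile factors (1.35, adjusted p = 0.0490). DESeq2 also called it (1.38, adjusted p = 0.0145). It was 0.99 without wild-type tumors 2, 4 and 7 (edgeR adjusted p = 0.362) and 0.98 with the multiply aligned share in the fit (edgeR adjusted p = 0.546).

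Other genes of the matrix were read from lists by role. Among 7 other fibrillar collagen genes tested, 0 were called by edgeR (1 at an unadjusted p under 0.05, 1 by DESeq2, 0 by voom), 6 had a difference above 0 and the list median was 0.62. Col5a2, of the fibril core, measured 66.6 ± 39.9 against 43.2 ± 20.4 CPM (log2 difference 0.62 ± 0.36, edgeR adjusted p = 0.234). Among 9 fibril-associated, beaded and other stromal collagens 1 rose, Col15a1, at 62.7 ± 24.9 against 24.4 ± 19.1 CPM (1.36 ± 0.44, adjusted p = 0.0439), with 8 of 9 above 0 and a list median of 0.73. These shares stand beside 7.4% called higher and 8.64% called lower among all genes.

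Of 21 tested genes that modify, fold or crosslink collagen, 3 rose, 0 fell and 18 did not pass, with a list median of 0.21. Plod2, the lysyl hydroxylase of collagen telopeptides, measured 35.7 to 170 CPM in null and 5.73 to 36.9 CPM in wild-type tumors, and rose by 1.81 ± 0.41 on the log2 scale (edgeR adjusted p = 0.0105). Only the lowest null tumor (35.7 CPM) lay below the highest wild-type tumor (36.9 CPM). Plod3, another lysyl hydroxylase, rose by 0.63 ± 0.16 (119 ± 22.7 against 77.1 ± 16.6 CPM, adjusted p = 0.0171), and Lepre1, the prolyl 3-hydroxylase, by 0.93 ± 0.29 (16.3 ± 4.29 against 8.55 ± 4.34 CPM, adjusted p = 0.0380).

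Of 6 other small leucine-rich proteoglycans tested, Fmod (fibromodulin) rose and 5 did not pass. It ranged from 2.33 to 463 CPM in null and from 1.90 to 36.0 CPM in wild-type tumors (log2 difference 3.41 ± 0.96, adjusted p = 0.0266), with null tumors 6 and 2 highest and tumor 5 the lowest of the null group. It was 2.74 and not called without null tumor 6 (edgeR adjusted p = 0.0521), not called without wild-type tumor 2 (3.27, adjusted p = 0.0514) or 7 (3.31, adjusted p = 0.0551), 4.08 and called without wild-type tumor 4, and not called with voom (3.39, adjusted p = 0.162). Among 17 elastic fibre, fibulin and matricellular genes 0 rose and 1 fell, Mfap2, of elastic microfibrils, from 26.8 ± 40.1 to 2.50 ± 3.63 CPM (-3.44 ± 0.82, adjusted p = 0.0128), while 13 were above 0 and the list median was 0.55. Wild-type tumor 4 held 115 CPM of Mfap2 and the other wild-type tumors 1.53 to 31.7 CPM; the log2 difference was -2.29 without that tumor (edgeR adjusted p = 0.0473), -4.35 without null tumor 5 and -0.77 with the multiply aligned share in the fit (adjusted p = 0.784).

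Collagen uptake and breakdown gave 2 rises among 13 genes tested, 0 falls and 11 that did not pass. Mrc2, the endocytic receptor for collagen, measured 16.9 to 33.8 CPM in null and 4.91 to 19.2 CPM in wild-type tumors, and rose by 1.35 ± 0.26 (edgeR adjusted p = 0.00508). Of the wild-type tumors 1, tumor 6, lay above the lowest null tumor. Mmp19, a matrix protease, rose by 1.03 ± 0.32 (3.74 ± 1.54 against 1.82 ± 0.551 CPM, adjusted p = 0.0364).

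Of 16 genes of TGF-beta ligands, receptors and activation, 3 rose, 1 fell and 12 did not pass. Ltbp3, which holds latent TGF-beta in the matrix, rose by 0.87 ± 0.21 (edgeR adjusted p = 0.0140), and Ctgf, a matricellular growth factor, fell by 0.93 ± 0.29 (adjusted p = 0.0354). Ltbp2 was also among those that rose. Among 14 basement membrane genes 3 rose, 0 fell and 11 did not pass, with 13 above 0 and a list median of 0.72: Lamc1, a laminin chain (0.77 ± 0.18, adjusted p = 0.0130), and the type IV collagen chains Col4a6 (1.85 ± 0.54, adjusted p = 0.0289) and Col4a5 (1.09 ± 0.35, adjusted p = 0.0403). Of 3 PDGF ligands tested 0 were called by edgeR, DESeq2 or voom and 1 had an unadjusted p under 0.05, with Pdgfa at 31.6 ± 7.17 against 46.7 ± 22.5 CPM (-0.56 ± 0.24, adjusted p = 0.118).

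Among 16 other fibroblast markers tested, 0 rose and Pdpn (podoplanin), which alveolar type 1 cells also make, fell by 1.17 ± 0.34 (4.23 ± 2.21 against 9.53 ± 4.06 CPM, edgeR adjusted p = 0.0302). The other 15 did not pass, and 12 of the 16 differences were above 0, with a list median of 0.21. Of 14 mural and smooth muscle markers Notch3, the Notch receptor of vessel smooth muscle, rose by 1.16 ± 0.32 (24.3 ± 8.91 against 10.8 ± 7.17 CPM, adjusted p = 0.0225) and 13 did not pass, with 7 on each side of 0. Of the 16 called genes that the naming rule took from these lists, 0 were called once the fit held the share of multiply aligned reads, 9 without wild-type tumor 7, and 1, Mrc2, without wild-type tumors 2, 4 and 7. In 16 fits with 1 tumor left out each, 8 of the 16 genes were called in every fit, among them Plod2, Plod3, Mfap2, Notch3, Ltbp3, Mrc2 and Lamc1. The other 8 were called in fewer of these fits, from 3 for Col15a1 over 6 for Lepre1 and for Col4a5, 8 for Mmp19, 9 for Pdpn, 11 for Ctgf and 12 for Col4a6 to 13 for Fmod, with adjusted p of at most 0.0867.

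**Figure D5:**
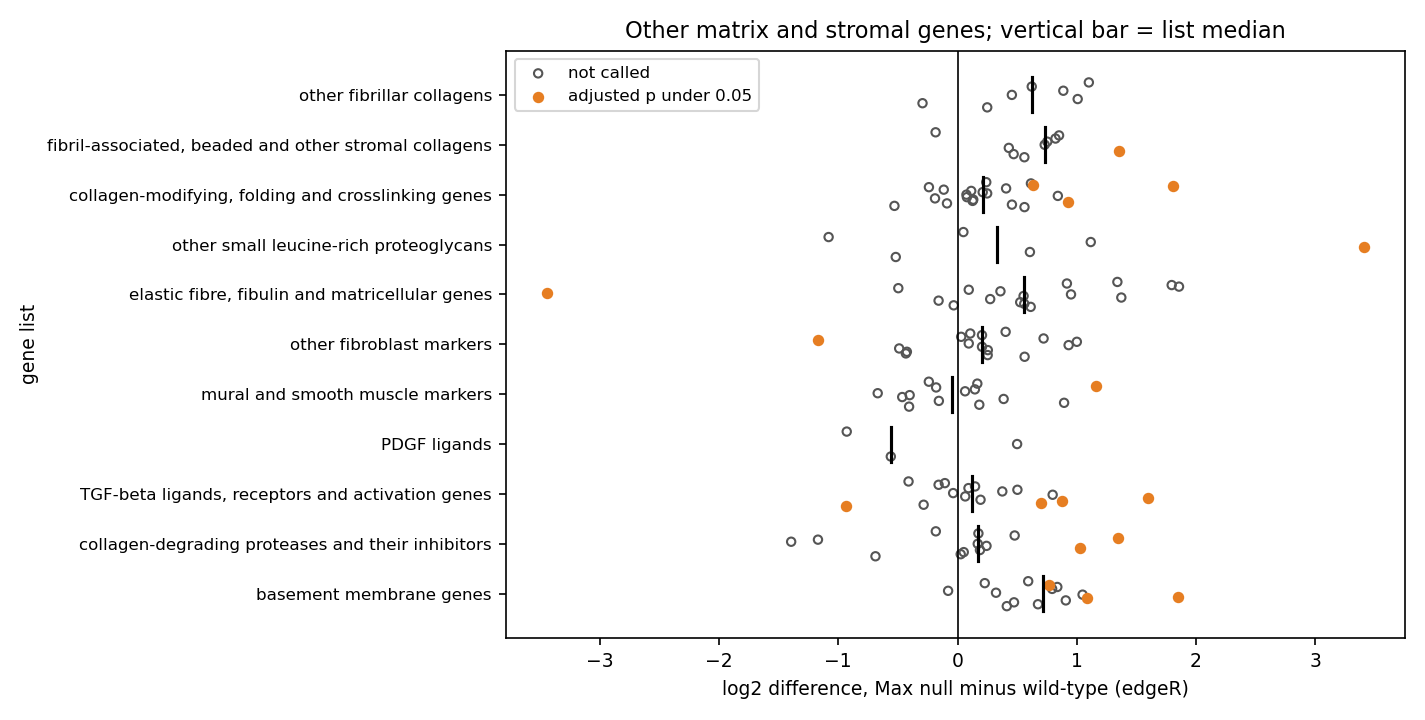
Log2 difference (Max null minus wild-type, edgeR) of each tested gene in 11 lists of matrix and stromal genes; filled points passed an adjusted p of 0.05, open points did not, and vertical bars are list medians. The medians run from -0.56 (PDGF ligands) to 0.73 (fibril-associated, beaded and other stromal collagens), with Fmod at 3.41 and Mfap2 at -3.44 farthest from 0.

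Markers of other cells were measured beside these genes. The 10 endothelial markers summed to 103 to 217 CPM in null and 74.0 to 166 CPM in wild-type tumors, with 0 called by edgeR, DESeq2 or voom and 2 at an unadjusted p under 0.05. Of 10 macrophage markers Cd68, C1qa, C1qb, C1qc and Cd163 fell and 5 did not pass, with 8 below 0 and a list median of -0.77. The list summed to 345 to 983 CPM in null and 372 to 961 CPM in wild-type tumors. Lyz2 was the largest part of that sum, at 186 to 739 CPM in null and 87.8 to 546 CPM in wild-type tumors. Mesothelial markers (5 of 6 tested, Wt1 not) summed to 55.5 to 205 CPM in null and 29.8 to 182 CPM in wild-type tumors, with 0 called by edgeR or voom, 1 by DESeq2 and 2 at an unadjusted p under 0.05. Krt19, a keratin not specific to mesothelium, was the largest part of this sum, at 35.3 to 179 CPM in null and 23.2 to 167 CPM in wild-type tumors. Msln and Upk1b were highest in wild-type tumor 1, at 27.2 and 14.2 CPM, and next in null tumor 8, at 17.2 and 6.73 CPM. Upk3b, Lrrn4 and Wt1 reached at most 7.43, 3.38 and 2.68 CPM. Of 6 cartilage markers tested Chad rose, and 4 others, Acan, Col9a1, Matn1 and Matn3, did not pass the filter. Acan measured 11.3 CPM in wild-type tumor 1 and at most 0.405 CPM in any other tumor. Col9a1, Matn1 and Matn3 were at most 2.70 CPM in any tumor. Alveolar markers summed to 704 to 3106 CPM in null and 240 to 2057 CPM in wild-type tumors, with Abca3 higher. Of the adipocyte markers only Fabp4 passed the filter, and it fell, at 7.36 to 35.2 CPM in null and 20.8 to 54.3 CPM in wild-type tumors. This is a call of 1 gene and not a measure of adipocytes. Adipoq, Cfd, Plin1 and Retn, which did not pass, were highest in null tumor 5, at 9.08, 37.7, 1.63 and 1.05 CPM. Other tumors held at most 2.21, 8.48, 0.561 and 0.492 CPM of them. Lep, also not tested, was highest in wild-type tumor 7, at 0.674 CPM. Neutrophil markers summed to 17.8 to 61.9 CPM in null and 35.8 to 102 CPM in wild-type tumors, with Cxcr2 lower. Cxcr2 alone held 30.7 CPM of the lowest wild-type sum (tumor 1) and 74.6 CPM of the highest (tumor 7). T and NK cell markers summed to 17.7 to 57.4 and 19.0 to 52.5 CPM, with Lck lower. Thy1, also listed as a fibroblast marker, held 37.1 CPM of the highest null sum (tumor 5) and 22.0 CPM of the highest wild-type sum (tumor 2). Lck measured 1.86 to 5.83 CPM in null and 3.14 to 25.9 CPM in wild-type tumors. Airway markers summed to 375 to 10260 and 219 to 4217 CPM, with 0 called by edgeR or voom, 1 by DESeq2 and 1 at an unadjusted p under 0.05. The part of these cells in the values of the 10 genes was not tested.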

How the data were processed

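Per the submitters' processing notes, the tools were HTSeq 0.6.1, TopHat, TopHat2 2.0.12 and bcl2fastq 1.8.4, and the build was mm9. Annotation and strand setting: not given in the sources used here. The authors deposited raw counts, 1 whole number of reads per symbol and tumor. The 5 HTSeq summary lines (29.2% to 45.7% of reads) were left out of library sizes and tests. No 2 libraries agreed within sampling noise (smallest chi-square per degree of freedom 34.5). From the counts, edgeR 4.0.16 (R 4.3.3) gave TMM factors, filterByExpr by group, and a quasi-likelihood F test of all 16 tumors over 14825 genes with Benjamini-Hochberg adjustment; the SE is the log2 difference divided by the square root of F. DESeq2 1.42.0 and limma 3.58.1 (voom) were alternatives, beside other scalings, filters, a replicate block, a covariate and left-out tumors. Correlations used log2 CPM with a prior count of 2 and 100000 permutations. The fit was tested on simulated data. The alternatives for Dbn1, Fbn1 and the Col1a1 to Col1a2 ratio were chosen after seeing the data.

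The members and gene lists were chosen with earlier results of these data known. Named were all members, up to 3 called genes of each matrix or stromal list by smallest p (or, with none called, the gene of the highest mean), and the 10 genes nearest in pattern to the members; unnamed gene models were counted only, and some genes the rule chose are not reported here. In GENCODE vM21 (build GRCm38, used for lengths and GC content only), 0 of the 10 members share exon bases with another counted gene. Arms of 9 and 7 tumors limit the precision; counting error adds to it for genes near 1 CPM such as Lum.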

Additional observations from a re-analysis of the deposited data

Results flagged for a closer look

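In 6 of 22 sets of values (10 genes and the Col1a1 to Col1a2 ratio, each in both groups), 1 tumor stood far from the rest of its group by Dixon's criterion. The criterion was applied to CPM and to the ratio, not to their logarithms. Its rate of about 1 of 20 by chance holds for normally distributed values. CPM are skewed to high values, so the 6 cannot be set against that rate. Null tumor 5 was high for Fbln1, at 102 CPM against 16.3 in the next, and for Lum, at 13.4 against 4.54 CPM. Null tumor 7 was high for Col1a1, at 433 against 242 CPM. Wild-type tumor 1 was high for Col1a2 (248 against 123 CPM), Lum (8.96 against 2.79 CPM) and Acta2 (159 against 56.2 CPM).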

How the results depend on the processing

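The count of called genes was 2378 with all tumors, 1471 to 3033 with 1 tumor left out, 318 with the tumor number as a replicate block, 10 with the share of multiply aligned reads in the fit and 256 when wild-type tumors 2, 4 and 7 were left out. The lowest, 1471, came without wild-type tumor 4 beside 1555 without wild-type tumor 7. The labels do not say that a tumor number pairs samples, and deviations of same-numbered tumors correlated from -0.17 to 0.24, with 1 of 7 null tumors closest to its own number. With all tumors DESeq2 called 3335 genes and voom 2440. Of the members, 0 were called in the edgeR fit, 2 with DESeq2, 1 with voom, and 0 to 1 with 1 tumor left out. The block called 0. Values near 0 changed sign: Lum was -0.33 with voom, -0.077 with the block, -0.52 with the covariate and -0.33 without wild-type tumors 2, 4 and 7, and ran from -0.66 to 0.83 with 1 tumor left out. Fbln1 was 0.065 with the covariate and 0.089 without those 3 tumors (-1.29 to 0.014 with 1 left out), Pdgfra -0.077 with voom and -0.068 with the block (-0.030 to 0.15 with 1 left out), and Postn ran from -0.41 to 0.27 with 1 left out. The cause was not tested. Other scalings and filters changed no member's call or direction; Lum was too low for the stricter filter. Of 16 called matrix genes, 2 were called with the block, Ltbp3 and Mrc2. The median r of 45 pairs was 0.30, beside 0.50 within null tumors, 0.34 within wild-type tumors and 0.41 for values centred within each group. It was 0.42 without wild-type tumors 2, 4 and 7, and 0.24 to 0.36 with 1 tumor left out.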
